A study of Mus musculus with 7 samples.

Results

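The 31 genes described here encode the enzymes that build cholesterol, the sterol sensors and transcription factors that control them, and the proteins that take up, carry, release and esterify cholesterol. They were chosen by gene symbol, with earlier results of these data known. A gene counted as measured where at least 1 probe set of the array named it alone. The brightest such probe set over the 7 arrays was used. This gave 29 measured genes of the 22180 genes tested in all. The probe set of Idi1 also names another gene and no probe set named Soat1 alone, so both appear only with values from the authors' deposited table.

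The study profiled whole adrenals from 2-month-old females. There were 4 samples of the genotype sf1:Cre; Ezh2 Fl/Fl (KO) and 3 wild-type samples (WT), labelled as biological replicates with 1 array each, and both groups had a mixed, uncontrolled background of mainly C57BL/6 and SV129. The sf1 (Nr5a1) regulatory sequences drive Cre in steroidogenic cells, so chromaffin cells, vessels, immune cells and any adhering fat keep their floxed Ezh2 alleles while adding RNA to the sample. The labels do not say whether the WT mice carried Cre or floxed alleles. Values are log2 expression from RMA, a method that corrects background, equalises arrays by quantiles and summarises probes, and changes are log2 KO minus WT. The defining markers of the cortex were present well above the array medians: the mean log2 value of 6 cortical genes (Star, Cyp11a1, Cyp11b1, Cyp21a1, Nr5a1 and Mc2r) was 12.08 to 12.17 on KO arrays and 12.002 to 12.08 on WT arrays. Ezh2, the histone H3 lysine 27 methyltransferase targeted in the KO, was at 7.04 ± 0.13 in KO (SD, n = 4) and at 7.08 on each of the 3 WT arrays (log2 change -0.04, adjusted p = 0.816). The exons covered by its probe set are not known here, so the genotype could not be checked by it.

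Cholesterol is the substrate of every adrenal steroid. Cells make it from acetyl-CoA through mevalonate, farnesyl diphosphate, squalene and lanosterol, or take it up from lipoproteins, and store the excess as esters. The transcription factors SREBP-1 and SREBP-2 (genes Srebf1 and Srebf2) sit in the endoplasmic reticulum bound to Scap. When sterols are scarce, Scap escorts them to the Golgi for cleavage, and the freed factors switch on the genes of synthesis and uptake. When sterols are plentiful, Insig1 and Insig2 hold Scap back. SREBPs bind sterol regulatory elements in promoters, usually beside CCAAT boxes bound by NF-Y or GC boxes bound by Sp1. In the mouse adrenal much of the cholesterol comes from circulating lipoproteins.

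The promoters of 25 of the 31 genes were matched by symbol in RefSeq (build GRCm38.p6), and the 250 bases before each annotated start were searched on both strands. The letters searched were CCAAT for the CCAAT box, GGGCGG for the GC box and TCACNCCAC for a short form of the sterol regulatory element. A CCAAT box was found before each of the 15 synthesis enzymes with an entry (15 of their 18 annotated starts, 83.3%), against 33.8% of all 32851 promoters. A GC box was found at 77.8% of the enzymes' starts, against 32.7% of all promoters. The sterol element occurred at 1 of the 18 starts, that of Hmgcs1, against 1.05% of all promoters. A longer form of the sterol element, also searched, occurred at 0 of the 18 starts, against 0.0731% of all promoters. A match is a string of letters and no measured binding site. Only these forms were searched, so a start without a match may still hold a variant of the sterol element. Shown here are the promoters of 3 enzymes that fell in KO (Hmgcs1, Tm7sf2 and Ebp) and of 2 that varied most between KO arrays (Cyp51 and Hsd17b7). Each runs 5′ to 3′ on the gene's strand and ends at the base before the start. Capitals mark CCAAT or its reverse complement ATTGG and, in Hmgcs1, the sterol element, and no base belongs to both. The windows are chr13:119690101-119690350 on the plus strand for Hmgcs1, and on the minus strand chr19:6067851-6068100 for Tm7sf2, chrX:8193513-8193762 for Ebp, chr5:4104698-4104947 for Cyp51 and chr1:169969206-169969455 for Hsd17b7.
Hmgcs1: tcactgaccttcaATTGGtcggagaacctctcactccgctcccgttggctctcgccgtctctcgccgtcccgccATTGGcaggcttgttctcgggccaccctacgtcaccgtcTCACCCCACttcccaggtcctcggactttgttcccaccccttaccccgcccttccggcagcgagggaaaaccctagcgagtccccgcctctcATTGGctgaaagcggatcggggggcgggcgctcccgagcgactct
Tm7sf2: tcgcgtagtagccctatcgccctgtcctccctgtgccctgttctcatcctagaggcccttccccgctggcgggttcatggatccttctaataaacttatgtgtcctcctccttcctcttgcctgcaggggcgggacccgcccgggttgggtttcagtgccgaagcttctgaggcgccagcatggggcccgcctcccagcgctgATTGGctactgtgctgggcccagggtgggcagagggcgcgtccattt
Ebp: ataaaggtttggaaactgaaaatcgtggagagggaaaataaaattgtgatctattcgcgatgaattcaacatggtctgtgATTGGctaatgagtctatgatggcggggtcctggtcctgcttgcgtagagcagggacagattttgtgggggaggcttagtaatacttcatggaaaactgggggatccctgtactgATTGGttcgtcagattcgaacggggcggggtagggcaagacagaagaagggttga
Cyp51: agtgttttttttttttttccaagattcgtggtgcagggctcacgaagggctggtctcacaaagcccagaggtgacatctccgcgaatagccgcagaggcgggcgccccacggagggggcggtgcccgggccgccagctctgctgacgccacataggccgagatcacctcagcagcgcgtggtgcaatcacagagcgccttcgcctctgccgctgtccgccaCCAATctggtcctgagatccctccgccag
Hsd17b7: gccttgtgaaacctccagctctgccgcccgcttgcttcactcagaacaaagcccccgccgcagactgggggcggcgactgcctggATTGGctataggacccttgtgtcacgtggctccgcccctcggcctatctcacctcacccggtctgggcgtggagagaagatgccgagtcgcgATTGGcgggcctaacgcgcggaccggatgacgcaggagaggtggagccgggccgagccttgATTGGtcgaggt
The CCAAT box nearest the start lay with its outer base 45 bases before it in Hmgcs1, 47 in Tm7sf2, 55 in Ebp, 29 in Cyp51 and 12 in Hsd17b7. The sterol element of Hmgcs1 covered bases 137 to 129 before the start, between its CCAAT boxes.

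In KO glands 6 of the 29 genes fell and 0 rose at an adjusted p under 0.05 by limma, with p-values adjusted over all genes. The 6 were Hmgcs1, Fdps, Ebp, Tm7sf2, Stard4 and Srebf1, which is 20.7% of the members, against 3.55% of all 22180 genes that fell and 5.14% that rose (8.69% in either direction). At an unadjusted p under 0.05, 13 members were lower and 2 higher (11.3% and 11.5% of all genes). The KO mean was below the WT mean for 24 of the 29, against 49.8% of all genes, and the median log2 change was -0.29, against 0.00036 over all genes. The list was chosen with earlier results of these data known, so these shares describe it and do not test it. The groups did not overlap for 9 genes: all 4 KO arrays lay below all 3 WT arrays for 8 genes (9.86% of all genes) and above them for Npc1 alone (10.3% of all genes). Of the 18 enzymes 17 had a lower mean in KO (median log2 change -0.33). The 2 genes of receptor turnover and sterol carriage had a median of -0.48. The 5 genes of SREBP and its regulators had a median of 0.04, and the 4 measured genes of lysosomal release and esters one of -0.06. In a whole gland, fewer cells of a type and less RNA per cell cannot be told apart. The count of falls was 3 without KO replicate 2, without KO replicate 3, without WT replicate 2 or without WT replicate 3, and Hmgcs1 and Ebp were called without any single array.

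**Figure D1:**
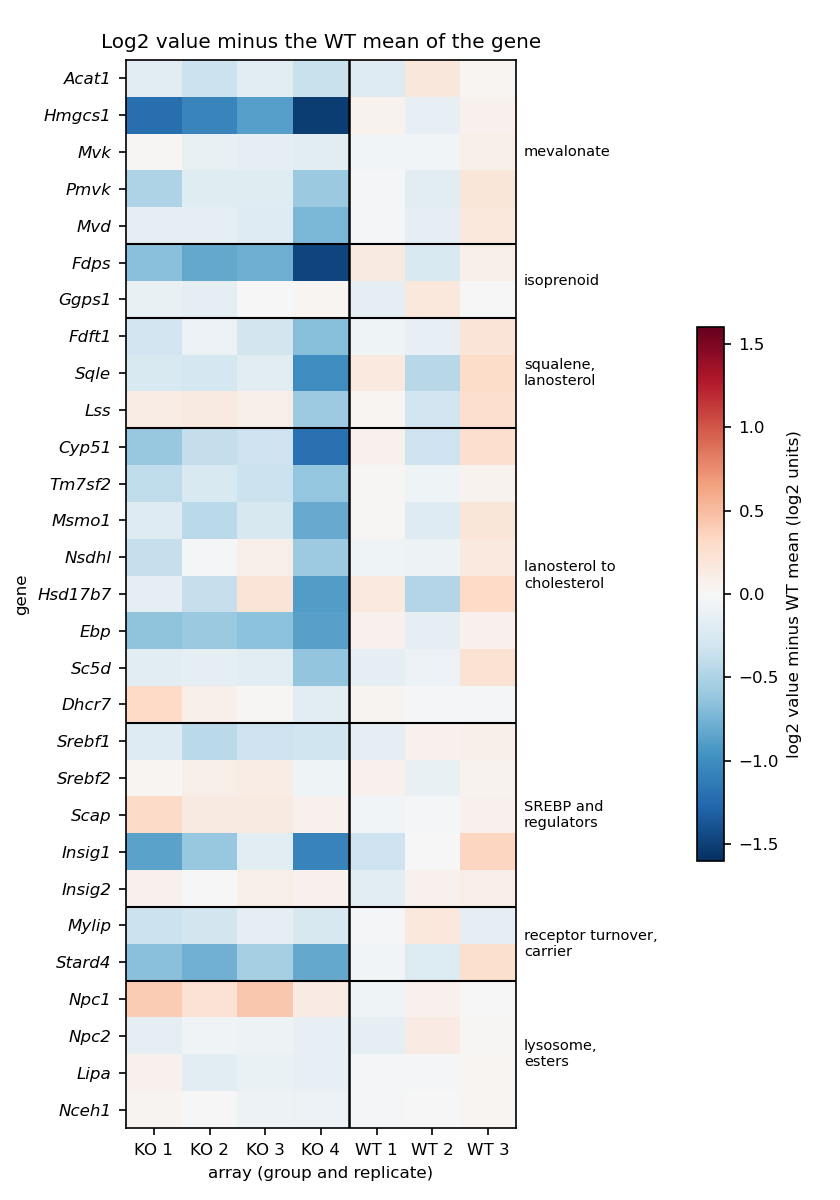
Each cell shows the log2 value of a gene (rows, grouped by step) on an array (columns) minus the gene's WT mean, blue for lower and red for higher. Hmgcs1, Fdps, Ebp and Stard4 are blue on all 4 KO arrays, KO 4 is the darkest column among the enzymes, and Npc1 is red on all 4 KO arrays.

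The genes listed under the mevalonate steps include Acat1, the mitochondrial acetoacetyl-CoA thiolase, and Hmgcs1, the cytosolic synthase that makes HMG-CoA. Acat1 is counted here among the synthesis enzymes by its place on the list, although it is mitochondrial. Hmgcs1 had the largest change of all members. It was at 9.48, 9.62, 9.80 and 9.17 on KO replicates 1 to 4, against 10.74, 10.56 and 10.75 on WT replicates 1 to 3. Every KO array was more than 0.7 log2 units below every WT array. The log2 change was -1.17 (SE 0.14, 95% interval -1.50 to -0.83, adjusted p = 0.00427), a 2.24-fold lower level. Without any single array the change stayed between -1.26 and -1.05, with a highest adjusted p of 0.0311. The kinases that phosphorylate mevalonate and phosphomevalonate, Mvk and Pmvk, and the decarboxylase Mvd were not called. Pmvk was at 7.43, 7.73, 7.73 and 7.32 in KO and at 7.90, 7.75 and 8.12 in WT, so that the groups came close without overlapping (log2 change -0.37, adjusted p = 0.147). Mvd was at 5.94 on KO replicate 4 and at 6.46 to 6.53 on the other KO arrays, against 6.53 to 6.84 in WT (log2 change -0.31, adjusted p = 0.307). Mvk changed by -0.11 (95% interval -0.25 to 0.04) and Acat1 by -0.26 (adjusted p = 0.169).

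Fdps joins isoprenoid units into farnesyl diphosphate, the branch point between sterols and the prenyl groups of proteins. It was at 9.29, 9.14, 9.18 and 8.49 on KO replicates 1 to 4, against 10.11, 9.71 and 10.06 in WT. The groups were apart, with replicate 4 lowest in KO and replicate 2 lowest in WT. Fdps was 1.91-fold lower in KO (log2 change -0.93, SE 0.20, adjusted p = 0.0337). The call was lost without KO replicate 2, without KO replicate 3 and without each of the WT arrays (adjusted p up to 0.135), while the change stayed between -1.06 and -0.76. Ggps1, which leaves the sterol route towards geranylgeranyl groups, overlapped fully (8.47 to 8.65 in KO and 8.47 to 8.79 in WT, log2 change -0.06, 95% interval -0.26 to 0.14). The isomerase Idi1, upstream of Fdps, had a log2 change of -0.69 and an adjusted p of 0.114 in the authors' deposited table.

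The 3 steps through squalene to lanosterol gave no calls. Fdft1, squalene synthase, commits carbon to sterols. Its log2 change was -0.34 (95% interval -0.69 to -0.0024, adjusted p = 0.216). Sqle, the squalene epoxidase, was at 8.10, 8.06, 8.18 and 7.35 in KO and at 8.50, 7.90 and 8.64 in WT. WT replicate 2 lay below 3 of the 4 KO arrays, and the log2 change was -0.42 (SE 0.25, adjusted p = 0.374). Lss, which closes squalene epoxide into lanosterol, had 3 KO arrays at 7.62 to 7.67 and replicate 4 at 6.94, against 7.56, 7.23 and 7.80 in WT. Its log2 change was -0.06 over all arrays, 0.12 without KO replicate 4 and 0.077 without WT replicate 3.

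Of the 8 enzymes that turn lanosterol into cholesterol, 2 fell, against 3.55% of all genes. Ebp, the sterol isomerase, was at 7.52, 7.56, 7.50 and 7.29 in KO, against 8.23, 8.02 and 8.23 in WT. The groups were separated by more than the range of either one, and Ebp was 1.62-fold lower in KO (log2 change -0.69, SE 0.08, adjusted p = 0.00425). Without any single array its adjusted p was at most 0.0280. Tm7sf2, a sterol C14-reductase, was at 6.53, 6.70, 6.60 and 6.32 in KO and at 6.96, 6.87 and 6.99 in WT. All KO arrays were below WT, by a log2 change of -0.40 (SE 0.09, adjusted p = 0.0383). This call was lost without KO replicate 1, without KO replicate 3 and without each WT array (highest adjusted p = 0.144).

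The other 6 enzymes of this stretch were not called. Cyp51, the lanosterol demethylase, was at 8.24, 8.47, 8.51 and 7.66 in KO and at 8.91, 8.51 and 9.11 in WT, with the highest KO array at the level of the lowest WT array (log2 change -0.63, SE 0.23, adjusted p = 0.167). Msmo1, the methylsterol oxidase that acts after Cyp51, changed by -0.43 (95% interval -0.81 to -0.05, adjusted p = 0.168). Nsdhl and Hsd17b7, which complete the removal of the methyl groups, changed by -0.22 and -0.30 and overlapped between groups. Hsd17b7 spread most of all members within both groups, with an SD of 0.46 in KO (n = 4) and 0.42 in WT (n = 3). Sc5d, the lathosterol desaturase, had 3 KO arrays at 9.62 to 9.66 and replicate 4 at 9.18, against 9.66 to 10.05 in WT (log2 change -0.29, adjusted p = 0.302). Dhcr7, the reductase that ends the Kandutsch-Russell route, was the only enzyme with a higher mean in KO (log2 change 0.06, 95% interval -0.19 to 0.31), and its change was -0.026 without KO replicate 1.

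**Figure D2:**
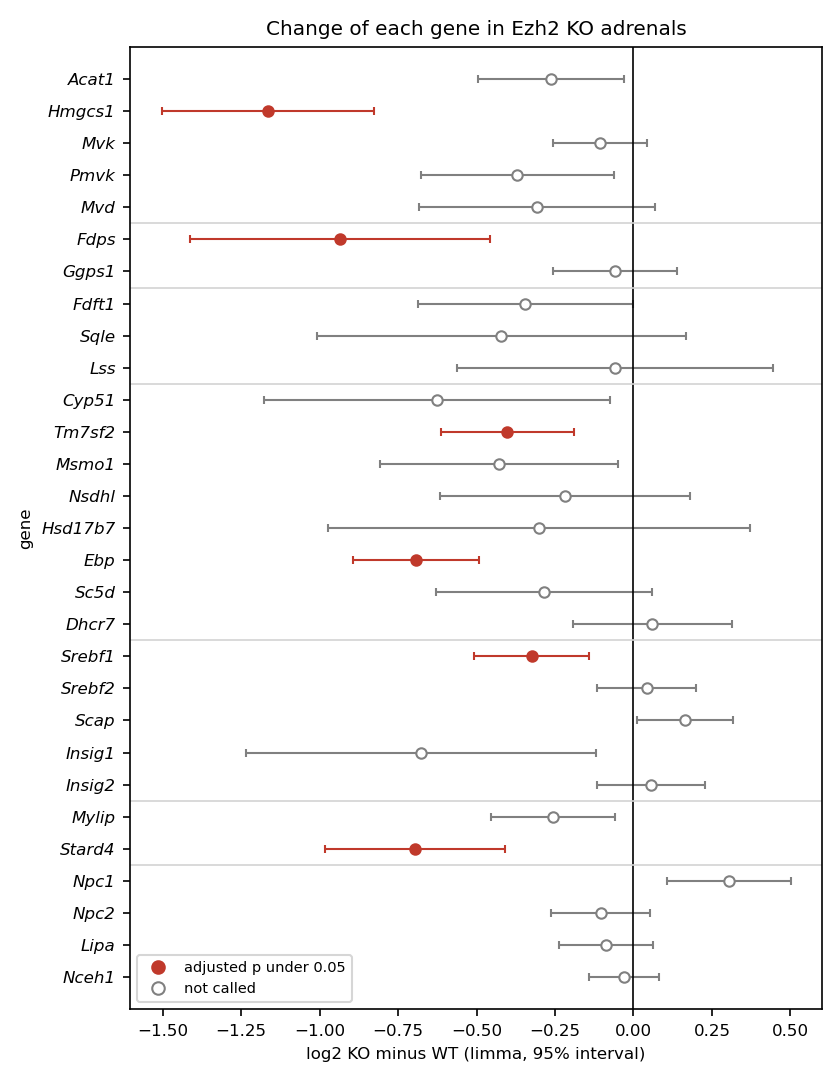
Points are log2 KO minus WT for each measured gene with its 95% interval from limma, in the order of the pathway. Filled red points are the 6 genes called lower, and the intervals of Hmgcs1 and Ebp lie farthest from 0 for their width.

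Among the SREBP genes, Srebf1 fell and Srebf2 was not called. Srebf1, whose SREBP-1c form mainly drives fatty acid synthesis, was at 7.66, 7.43, 7.53 and 7.55 in KO and at 7.71, 7.94 and 7.95 in WT. KO replicate 1 and WT replicate 1 differed by only 0.06, the closest pair between the groups. The log2 change was -0.32 (SE 0.08, adjusted p = 0.0468), and the call was lost without any one of 5 arrays, KO replicates 2, 3 and 4 and WT replicates 2 and 3 (highest adjusted p = 0.165). Srebf2, the main driver of cholesterol synthesis, was at 8.60, 8.66, 8.68 and 8.50 in KO and at 8.63, 8.44 and 8.62 in WT (log2 change 0.04, 95% interval -0.12 to 0.20, or -0.0094 with arrays centred on their medians). Cleavage of the SREBP proteins was not measured.

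The regulators of SREBP gave no calls. Insig1, itself an SREBP target, was at 8.88, 9.13, 9.56 and 8.67 in KO and at 9.40, 9.74 and 10.08 in WT. It was lower in KO by 0.68 on the log2 scale, nearly as large a difference as that of Ebp, but with a wider spread (SD 0.38 in KO and 0.34 in WT, adjusted p = 0.143). Insig2, which is less dependent on SREBP, overlapped (7.11 to 7.22 in KO and 6.95 to 7.23 in WT, log2 change 0.06). Scap was at 9.09, 8.93, 8.92 and 8.85 in KO and at 8.74, 8.75 and 8.86 in WT, with 1 KO array just under the highest WT array (log2 change 0.17, unadjusted p = 0.0384, adjusted p = 0.188). A second, dimmer probe set of Scap gave 0.15 (adjusted p over all probe sets = 0.539).

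Stard4, a soluble protein that carries cholesterol between membranes and is an SREBP-2 target, fell. It was at 6.42, 6.33, 6.57 and 6.27 in KO and at 7.05, 6.88 and 7.35 in WT. All KO arrays lay below WT, and Stard4 was 1.62-fold lower (log2 change -0.70, SE 0.12, adjusted p = 0.0155). The adjusted p was 0.0506 without KO replicate 2. Mylip (Idol), the ubiquitin ligase that marks lipoprotein receptors for degradation and is induced by the sterol receptors LXR, was at 6.73 to 6.93 in KO and 6.92 to 7.23 in WT. KO replicate 3 and WT replicate 3 overlapped by 0.01, and the log2 change was -0.26 (adjusted p = 0.119).

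**Figure D3:**
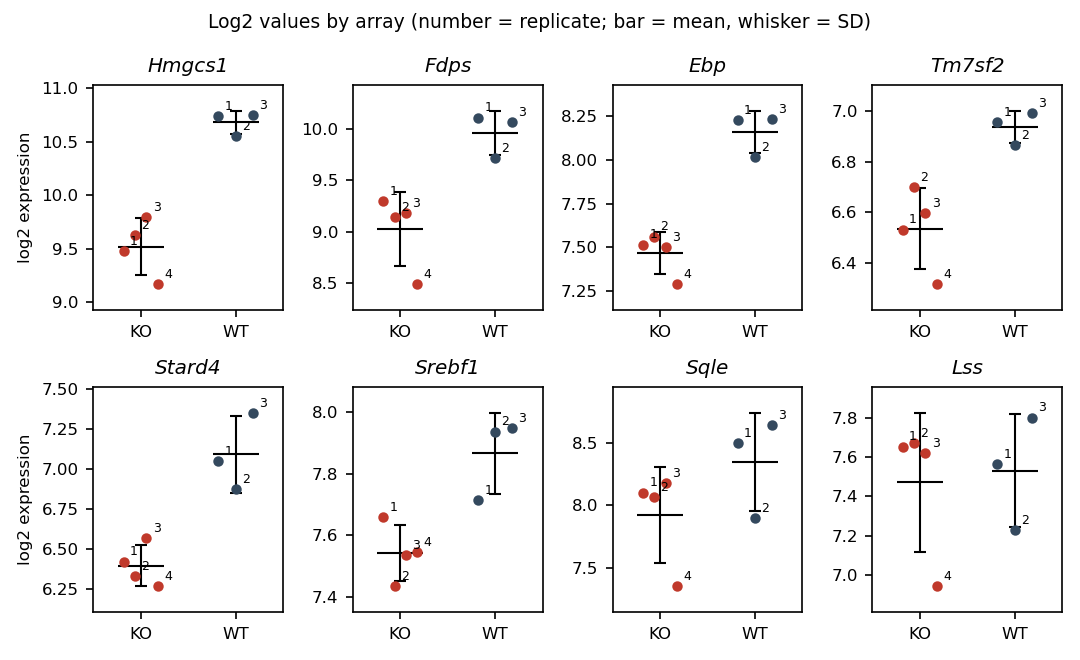
Log2 values of the 6 called genes and of Sqle and Lss on each array, KO in red at the left and WT in dark blue at the right, numbered by replicate, with the group mean and SD. The groups are apart in the 6 called genes, and in Sqle and Lss KO 4 and WT 2 each lie below the rest of their group.

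Of the 4 measured genes that free cholesterol from lysosomes and ester stores 0 were called, and 3 had a lower mean in KO (49.8% of all genes). Npc1, the membrane protein that exports cholesterol from late endosomes, was at 8.68, 8.50, 8.70 and 8.40 in KO and at 8.20, 8.33 and 8.26 in WT. All KO arrays lay above WT, but the difference was not called (log2 change 0.30, SE 0.08, adjusted p = 0.0742). It was called without KO replicate 4 (0.36, adjusted p = 0.0392) and with the mean of its probe sets (0.24, adjusted p = 0.0212). The second probe set of Npc1 was dimmer, at 4.54 to 4.69 in KO and 4.34 to 4.49 in WT, under the array medians. On its own it gave 0.17 and was not called (adjusted p over all probe sets = 0.127). Its partner Npc2, which hands cholesterol to Npc1, changed by -0.10 (95% interval -0.26 to 0.05), and Lipa, the lysosomal acid lipase, by -0.09 (95% interval -0.24 to 0.06). Nceh1, a neutral cholesterol ester hydrolase, was at 9.35 to 9.48 in KO and 9.42 to 9.47 in WT (log2 change -0.03, or 0.032 after a further quantile normalization). A second, dimmer probe set of Nceh1 gave 0.14 (adjusted p over all probe sets = 0.670). Soat1, which esterifies cholesterol in the adrenal, had a log2 change of -0.34 and an adjusted p of 0.0573 in the authors' deposited table.

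Much of the spread of the enzymes within each group followed single arrays. KO replicate 4 was the lowest KO array for 17 of the 18 enzymes, against 21.4% of all genes, and WT replicate 2 was the lowest WT array for 15 of 18, against 32.7% of all genes. These arrays were singled out after their values were seen. KO replicate 4 lay below the mean of the other KO arrays by a median of 0.46 log2 units over the enzymes (-0.46), and WT replicate 2 below the other WT arrays by a median of 0.20 (-0.20). The enzymes low on one array were those low on the other. Hsd17b7 deviated by -0.79 on KO replicate 4 and -0.71 on WT replicate 2, Sqle by -0.76 and -0.67, Cyp51 by -0.75 and -0.50, and Lss by -0.71 and -0.45. Hmgcs1 deviated by only -0.46 and -0.19 and Ebp by -0.24 and -0.21. Across the 18 enzymes the deviations had a Pearson r of 0.889 and a Spearman rho of 0.858, and across all 22180 genes an r of -0.0757, as a description in which all points of an axis share the same arrays. Deviations under -0.4 on KO replicate 4 and under -0.2 on WT replicate 2, limits set after the values were seen, were found together in 38 of all genes (0.171%), and 7 of the 38 were enzymes of the list (Mvd, Fdps, Sqle, Lss, Cyp51, Msmo1 and Hsd17b7).

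**Figure D4:**
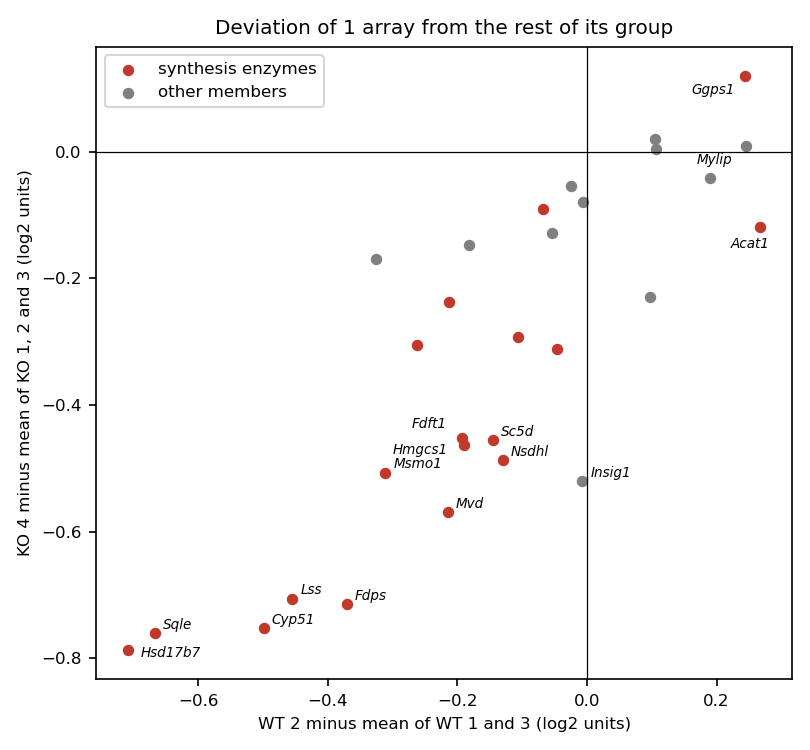
Each point is 1 measured gene, with the log2 deviation of WT 2 from the other WT arrays on the horizontal axis and of KO 4 from the other KO arrays on the vertical axis. Synthesis enzymes (red) run from Ggps1 at the upper right to Hsd17b7 and Sqle at the lower left, while most other members (grey) lie near the origin.

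Further genes of sterol sensing and of SREBP-driven lipid synthesis were read from the same fit. Of 9 measured genes that cleave SREBP or degrade its partners, 2 fell and 0 rose, against 3.55% and 5.14% of all genes. Rnf145, a sterol-responsive ubiquitin ligase of the endoplasmic reticulum, was at 8.28, 8.13, 8.11 and 8.24 in KO and at 8.58, 8.52 and 8.53 in WT (log2 change -0.35, adjusted p = 0.00906). Erlin1, a cholesterol-binding membrane protein, changed by -0.26 (adjusted p = 0.0399), a call lost without any single array other than KO replicate 1 (highest adjusted p = 0.134). Its partner Erlin2 changed by -0.24 (adjusted p = 0.146), and Vcp, the ATPase that pulls ubiquitinated proteins from the membrane, by -0.068 (adjusted p = 0.535).

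Of 14 measured lipid genes known as SREBP targets, 3 fell and 0 rose, against 3.55% and 5.14% of all genes. Elovl5, a fatty acid elongase, was at 11.28, 11.27, 11.23 and 11.19 in KO and at 11.67, 11.67 and 11.61 in WT (log2 change -0.40, SE 0.04, adjusted p = 0.00250). Aacs, which activates acetoacetate for lipid and sterol synthesis, changed by -0.80 (adjusted p = 0.0398) and Tmem97, a sterol-responsive membrane protein, by -0.44 (adjusted p = 0.0366). The call of Aacs held only without WT replicate 1 among the fits that left out an array (highest adjusted p = 0.151), and that of Tmem97 only without KO replicate 1 or WT replicate 2 (highest adjusted p = 0.130). KO replicate 1 was the lowest of all 7 arrays for 6 of the 14 lipid genes and for 0 of the 18 sterol enzymes. KO replicate 4 was the lowest for 5 of the 14 lipid genes (Acly, Elovl5, Fads1, Fads2 and Pcyt2) and for 17 of the 18 sterol enzymes. Fasn, the fatty acid synthase, is an example picked with its values in view. It was at 10.36 on KO replicate 1 and at 11.15 to 11.76 on the other KO arrays, against 11.16 to 11.96 in WT (log2 change -0.42, adjusted p = 0.560). Acaca changed by -0.65 (adjusted p = 0.264) and Pcyt2 by -0.48 (adjusted p = 0.0661), neither of them called.

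Of 11 measured genes that use cholesterol for steroids, 0 were called by limma. At an unadjusted p under 0.05, 4 were higher and 3 lower (11.5% and 11.3% of all genes). Nr5a1 and Fdx1 had the largest changes of this list. Nr5a1, the transcription factor SF-1 of steroidogenic cells, changed by 0.44 (adjusted p = 0.170), and its groups overlapped. It was at 10.88 to 11.01 in KO and at 10.96, 10.29 and 10.27 on WT replicates 1 to 3. Fdx1, the ferredoxin that feeds electrons to the side-chain cleavage enzyme, changed by 0.26 (adjusted p = 0.0592). Of 8 measured genes of the non-sterol isoprenoid branch 0 were called. At an unadjusted p under 0.05, 3 were lower and 0 higher (11.3% and 11.5% of all genes). The prenyltransferase Coq2 of ubiquinone synthesis changed by -0.34 (adjusted p = 0.0647) and Nus1, a subunit of the dolichol-making enzyme, by -0.22 (adjusted p = 0.0974).

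Markers of other cells also differed between the groups. The mean log2 value of 9 adipocyte markers was 6.92, 8.60, 8.46 and 7.64 on KO replicates 1 to 4 and 8.22, 9.40 and 9.22 in WT. None of the 9 was called, although all 9 had a lower mean in KO (49.8% of all genes), and the groups overlapped. At an unadjusted p under 0.05 by limma, 2 were lower (11.3% of all genes). The mean of the synthesis enzymes was 8.37, 8.38, 8.44 and 7.96 on KO replicates 1 to 4 and 8.67, 8.52 and 8.82 in WT. By these means KO replicate 1 was the lowest array for the adipocyte markers and KO replicate 4 the next lowest, while KO replicate 4 was the lowest for the enzymes. The adipocyte markers with the largest changes, Ucp1 (-2.88) and Cidea (-1.97), were themselves lowest of all 7 arrays on KO replicate 4. Most of the other adipocyte markers were lowest on KO replicate 1. With the adipocyte mean as a covariate, Hmgcs1 and Ebp were called and the other 4 were not, with a log2 change of -0.99 for Fdps (adjusted p = 0.140), -0.67 for Stard4 (adjusted p = 0.105), -0.34 for Srebf1 (adjusted p = 0.191) and -0.33 for Tm7sf2 (adjusted p = 0.240). The 12 measured chromaffin markers were all called higher in KO, against 5.14% of all genes. Their list means were 10.20 to 10.46 in KO and 9.28 to 9.41 in WT. The 4 X-zone markers, of a transient inner cortical zone, all fell, against 3.55% of all genes. Their list means were 6.46 to 7.09 in KO and 9.17 to 9.51 in WT. Of 8 capsule and stroma markers 6 rose, against 5.14% of all genes, with list means of 8.23 to 8.75 in KO and 7.52 to 7.62 in WT. Macrophage markers had list means of 7.005 to 7.49 in KO and 7.48 to 7.57 in WT. Of these 8 markers 0 were called and 3 were lower at an unadjusted p under 0.05 (11.3% of all genes). Endothelial markers had list means of 8.60 to 8.97 in KO and 8.87 to 8.95 in WT, with 1 of 6 called lower (3.55% of all genes). With the chromaffin mean as a covariate 0 of the 29 sterol genes were called by limma and 1 had an unadjusted p under 0.05, with an SE of 0.91 for Hmgcs1 in place of 0.14. That mean differs between the groups without overlap, so it and the genotype cannot be told apart. The part of adipocyte, X-zone, stromal, macrophage and endothelial cells in the fall of the sterol genes was not tested.

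**Figure D5:**
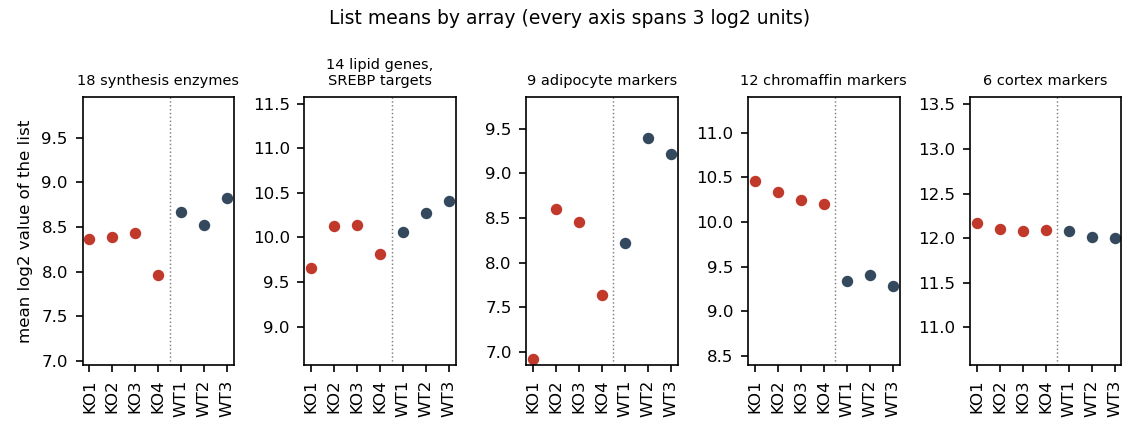
Mean log2 value of each gene list on each array, KO in red at the left and WT in dark blue at the right of the dotted line, with every axis spanning 3 log2 units. The enzyme mean is lowest on KO 4 and the adipocyte mean on KO 1, the chromaffin means are higher on all KO arrays, and the cortical means differ least.

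The authors' deposited table, made per gene symbol, lists all 31 genes. In it 6 members were lower and 0 higher at an adjusted p under 0.05, against 4.16% and 5.57% of its 28638 symbols. The same 6 genes were involved, and for all 29 measured genes the sign was that of the limma fit. In the authors' deposited table the log2 changes were -1.21 for Hmgcs1, -0.93 for Fdps, -0.77 for Ebp, -0.71 for Stard4, -0.41 for Tm7sf2 and -0.35 for Srebf1. Both come from the same 7 arrays, so the deposited table is no independent measurement.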

How the data were processed

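Total RNA from 4 KO and 3 WT whole adrenals was hybridised to Affymetrix arrays with 1 colour, after labelling with the whole-transcript reagent kit named in the labels' protocols. The authors deposited log2 values of 41345 probe sets, which the submitters' processing notes credit to RMA, with array medians of 5.32 to 5.38. Neither its version nor a genome build is given in the sources used here. Detection calls were not used, so probe sets were not judged against background. A second table deposited by the authors holds, per symbol, log2 changes with p-values, raw and adjusted, from a test not named in the sources used here.

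Through the platform annotation 23521 probe sets had 1 symbol, 1820 several and 16004 none here. Entrez identifiers of 23328 matched RefSeq of GRCm38.p6, with 0 symbols changed. Of several probe sets the brightest was used, with no filter on low values. For 22180 genes, KO was compared with WT by moderated linear models (limma 3.58.1, R 4.3.3: lmFit, then eBayes), two-sided, without covariates, called at a Benjamini-Hochberg adjusted p under 0.05. Every SE, interval and adjusted p of a gene is from this fit unless named otherwise. The fit leaves 5 residual degrees of freedom and a median SE of 0.0703, and the number of arrays limits the precision. Pearson's r was 0.993 to 0.996 within groups and 0.984 to 0.990 between them. The fit was checked on simulated data.

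The members and lists were chosen with earlier results of these data known. Named are all measured members, and of the other lists the called genes and the largest other changes. At most 2 uncalled genes were taken per list, and Fasn was added after its values were seen. Alternatives covered low values, probe sets, normalization, variance prior, array weights, replicate number, covariates, a fold minimum and leaving out each array.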

Additional observations from a re-analysis of the deposited data

Results flagged for a closer look

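For 4 synthesis enzymes KO replicate 4 stood apart from the other 3 KO arrays by Dixon's test, with a gap to the nearest KO array of at least 0.862 of the group's range. Its log2 value was 5.94 for Mvd (other KO arrays 6.46 to 6.53), 7.35 for Sqle (8.06 to 8.18), 6.94 for Lss (7.62 to 7.67) and 9.18 for Sc5d (9.62 to 9.66). Without this array the log2 change by limma was -0.16 for Mvd (adjusted p = 0.335), -0.23 for Sqle (adjusted p = 0.546), 0.12 for Lss (adjusted p = 0.683) and -0.17 for Sc5d (adjusted p = 0.424), none of them called. The same test marked 4 of the 35 genes followed through the alternatives (11.4%) and 3924 of all genes (17.7%). Chance alone marks about 5% of groups of normal values, a share that all genes of these arrays exceeded. The followed genes were marked less often than all genes, so these marks do not set them apart. Why this array stood apart was not tested.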

How the results depend on the processing

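Hmgcs1 and Ebp kept their call under each alternative except the chromaffin covariate (adjusted p = 0.774 and 0.681) and, for Hmgcs1, the description number as a block (adjusted p = 0.0520). Of 668 values of single genes under alternatives, 566 kept direction and side of the threshold, 69 lost their call, 5 gained one and 28 changed sign. The number of members called lower (6) was 2 with the adipocyte covariate and 2 against a fold of 1.2, 0 with the chromaffin covariate, and 3 to 5 when an array was left out. The number called higher (0) was 1, Npc1, among genes of at least median level, with the mean of probe sets and after a further quantile normalization, and 0 to 1 when an array was left out. Over all genes, calls of lower and higher expression (788 and 1140) were 297 and 484 with the adipocyte covariate, 130 and 308 against a fold of 1.2, and 0 and 0 by limma with the chromaffin covariate, where 1 member and 1891 genes had an unadjusted p under 0.05. That covariate follows the groups, and the SE of Hmgcs1 was 0.91 with it and 0.14 without. Calls of lower expression were 1329 with arrays centred on their medians, when 43.1% of calls were higher in place of 59.1%. Leaving out an array gave 322 to 654 lower and 594 to 945 higher.

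The labels do not state that replicate numbers pair the samples. Between samples of the same title number the correlations of deviations were 0.07, -0.08 and -0.11. For the number in the descriptions they were -0.07, 0.21 and -0.02. So few arrays cannot show whether the samples were paired. With the title number as a block, 286 genes were lower and 523 higher, and with the description number as a block 393 and 610. Of the members 5 and 2 were called lower. Insig1 was called with the title block (log2 change -0.55, adjusted p = 0.0281), and Tm7sf2 and Srebf1 were not. KO replicate 4 has no WT array of its title number, so the title block gave the log2 changes found without that array (-0.55 for Insig1 in both). In the same way the description block gave those found without KO replicate 1 (-0.026 for Dhcr7 in both). Neither block is therefore separate from leaving out that array.

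Signs changed as follows, always without a call. With the chromaffin covariate the log2 change was 0.090 for Pmvk, 0.20 for Ggps1, 0.038 for Nsdhl, -1.31 for Dhcr7, -0.37 for Scap, 0.049 for Insig1, -0.29 for Npc1, 0.83 for Ezh2, 0.43 for Erlin1 and 0.73 for Aacs. With the adipocyte covariate it was 0.012 for Ggps1, 0.025 for Nsdhl, -0.042 for Dhcr7 and 0.035 for Ezh2. It was 0.12 for Lss with the title block, and -0.026 for Dhcr7 and 0.023 for Ezh2 with the description block. Srebf2 was at -0.0094 with arrays centred, and Nceh1 at 0.056 with the mean of its probe sets, 0.14 on its second one and 0.032 after a further quantile normalization. When an array was left out, Ggps1 ranged from -0.14 to 0.021, Lss from -0.21 to 0.12, Dhcr7 from -0.026 to 0.14, Srebf2 from -0.019 to 0.079, Insig2 from -0.031 to 0.11 and Ezh2 from -0.074 to 0.023. The cause was not tested for any of these.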
